A study of Mus musculus with 4 samples.

Results

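Costimulatory and coinhibitory ligands are surface proteins by which dendritic cells tune the T cells that read their antigen. The histone mark H3K79me2, dimethylation of H3 within its globular core, was described over 9 genes of such proteins, namely Cd80, Cd86, Cd274, Pdcd1lg2, Icosl, Cd40, Cd83, Tnfsf9 and Sirpa, out of 21900 protein-coding genes. The genes were chosen by name, with earlier results of these data known, and each was taken as its RefSeq body on GRCm38 with 2 kb either side. Sirpa, Cd40 and Cd83 stand among them although each also acts as a receptor or receptor-like molecule of the dendritic cell itself.

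The cells were bone marrow-derived dendritic cells (BMDCs) of the C57BL/6J strain, kept in medium with fetal bovine serum. They were given PBS, or lysine at 18 mM for 6 h, and no time is stated for PBS. Chromatin immunoprecipitation for H3K79me2 and sequencing (ChIP-seq) gave 1 library per condition, besides 1 input library each that was not analysed here, 4 samples in all. The labels name no replicate cultures, do not say how many animals gave the marrow and give no stage of maturation for the cells.

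The design has no replicates, so no test was made and every value describes these 2 libraries. The files list called peaks, 11926 in PBS and 9805 in lysine, without read totals, so the depth is unknown. Over the whole genome, the length under lysine peaks was 0.796 of that under PBS peaks. Among all protein-coding genes 36.9% carried PBS peaks and 34% lysine peaks. Of 19 dendritic cell marker genes 12 carried PBS peaks and 9 lysine peaks, over 14.2 and 11.9 kb, counting peaks of H2-DMa that also lie on Brd2. Itgax (1261 and 431 bp), Csf2ra (1459 and 1512 bp) and Ly75 (1253 and 1752 bp) were covered in both libraries. Cd74 was longer in lysine (900 and 2441 bp), and H2-Ab1 (2602 and 0 bp), H2-Eb1 (1325 and 0 bp) and Zbtb46 (310 and 0 bp) had peaks in PBS alone. H2-Aa, Ccr7, Batf3, Csf2rb, Fscn1, Ccl22 and Cd209a had no peak in either. Of 11 macrophage and monocyte markers 7 and 3 had a peak, with 5.87 and 2.66 kb covered, counting peaks of Cd68 that also lie on Mpdu1. Of the 11 markers, Adgre1, Lyz2, Ly6c2 and Ccr2 had none. A peak lay on 1 and 0 of 7 neutrophil markers, on 1 and 1 of 8 T and NK cell markers (Cd3d), on 0 and 0 of 6 B cell markers, and on 0 and 1 of 8 genes taken as silent (Syn1).

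H3K79me2 is deposited by the methyltransferase Dot1l as RNA polymerase II moves into a gene, and it is typically found over the first part of transcribed genes. In dendritic cells the B7 proteins Cd80 and Cd86 bind Cd28 and Ctla4 on T cells. Cd274 and Pdcd1lg2, also called PD-L1 and PD-L2, bind the inhibitory receptor Pdcd1 (PD-1). Many of these genes are switched up when a dendritic cell matures after contact with microbial products or with T cells.

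H3K79me2 was called on 6 of the 9 genes in each library, and its length over the 9 genes was 9364 bp in PBS against 5624 bp in lysine. The lysine total was thus 0.601 of the PBS total, compared with 0.829 over the windows of all protein-coding genes. Both libraries had peaks on Cd86, Cd274, Pdcd1lg2, Cd83 and Sirpa. Cd80 had a peak in PBS alone, Cd40 in lysine alone, and Icosl and Tnfsf9 in neither. Among all protein-coding genes 36.9% carried PBS peaks, 34% lysine peaks and 29.5% both. A peak in PBS alone was found on 7.42% and in lysine alone on 4.47%. Windows of 20 kb or more, which 7 of the 9 genes have, held a PBS peak in 45.5% and a lysine peak in 41.8% of cases, and shorter windows in 27.7% and 25.6%. Icosl and Tnfsf9 have the 2 shortest windows of the 9, 14.2 and 6.47 kb.

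Covered length was shorter in lysine on 5 genes (Cd86, Sirpa, Cd83, Pdcd1lg2 and Cd80) and longer on 2 (Cd40 and Cd274). Of all protein-coding genes with a peak in either library, 59.3% were shorter and 40.6% longer in lysine. The difference (lysine minus PBS) had a median of -302 bp over the 9 genes and of 0 bp over all genes, most of which have no peak. On 3 genes, Cd86, Sirpa and Cd83, the difference was 500 bp or more, all shorter in lysine, which was the case for 5.86% of all genes. Only a gene with 500 bp or more in PBS can lose that much. Of the 9 genes 5 had such a length, and of all genes 4718, of which 1283 lost 500 bp or more. A gain of that size was found on 0 of the 9 and on 2.87% of all genes. The macrophage and monocyte markers had 0.453 of their PBS length in lysine and the dendritic cell markers 0.840, and the part of this in the values of the 9 genes was not tested. These 2 ratios count peaks of Cd68 (2467 and 1163 bp) that also lie on Mpdu1. They also count peaks of H2-DMa (3141 and 2980 bp) that also lie on Brd2, and neither ratio was taken without such peaks. Fewer marked cells, less of the mark per cell and a difference in depth, which is unknown, cannot be told apart in these 2 bulk libraries.

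**Figure D1:**
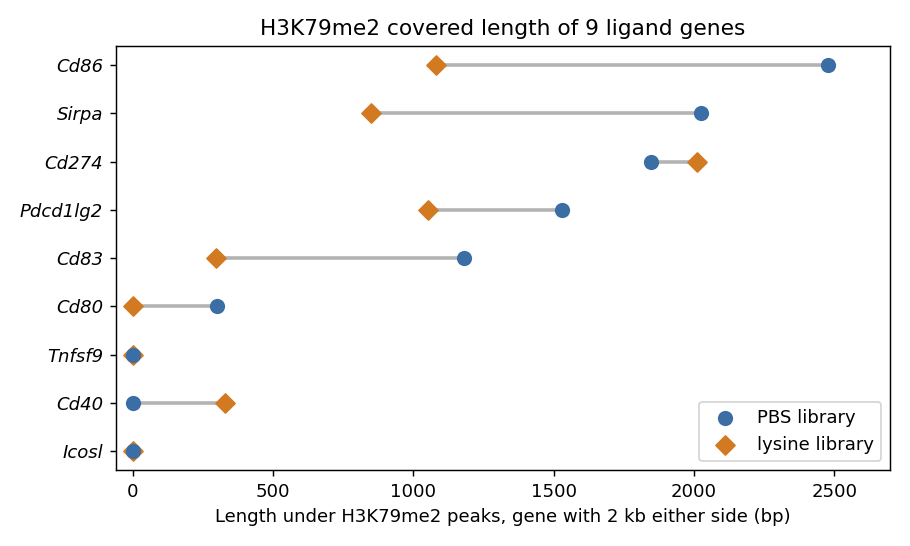
Length under called H3K79me2 peaks on each of the 9 genes with 2 kb either side, in bp, with circles for the PBS library and diamonds for the lysine library (1 library each, so no error bars). Cd86, Sirpa and Cd83 lie furthest apart, with 2478, 2024 and 1182 bp in PBS and 1081, 850 and 298 bp in lysine, whereas the points of Cd274 lie close together.

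Cd86 encodes B7-2, a costimulatory ligand that dendritic cells carry early in activation. It lies on chromosome 16 from 36568956 to 36666158 and had the most covered length of the 9 genes in PBS, 2478 bp against 1081 bp in lysine. In PBS 178 protein-coding genes had more covered length than Cd86, and in lysine 1098 had more. All of its peaks lay inside the gene, at 3 places in PBS and 2 in lysine, and none touched another annotated gene.

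The first PBS peak of Cd86 (36598258 to 36598819, 562 bp) had no lysine partner. Its fold enrichment was 4.75 and its −log10 q 4.33, which is above 54.8% of the PBS list. Fold enrichment and −log10 q are the authors' values for a peak over the background the caller used and serve here only to place a peak within its list. The second PBS peak (36631782 to 36633357) was the widest on any of the 9 genes, 1576 bp, and wider than 97.1% of the PBS list. The lysine peak there (36631987 to 36632572, 586 bp) lay wholly inside it. The caller's narrow block, the denser core of a broad region, was 347 bp wide in PBS (36632170 to 36632516) and 586 bp in lysine. The third place held peaks of 340 bp in PBS (36655931 to 36656270) and 495 bp in lysine (36655893 to 36656387), 9.89 and 9.77 kb from the gene's upper end. It ranked differently in the lists, with a −log10 q of 3.12 above 33.5% of PBS peaks, and of 9.4 above 89.9% of lysine peaks. The shortfall of Cd86 in lysine therefore came from the first place and from the flanks of the second, while the third was wider in lysine. By narrow blocks alone Cd86 had 1249 bp (PBS) and 1081 bp (lysine), a difference of -168 bp.

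Cd80 encodes B7-1, the other ligand of Cd28 and Ctla4 (chromosome 16, 38457430 to 38495958). Its covered length was 302 bp in PBS against 0 bp in lysine. Its single peak (38457333 to 38457634) crossed the gene's lower end and lay 1299 to 1600 bp upstream of the start site in RefSeq's promoter table. The peak was a weak one, with a −log10 q of 2.23 above 14.7% of the PBS list. With the PBS list held to the 9805 strongest peaks, the number of the lysine list, neither library had a peak on Cd80. The nearest lysine peaks lay 24.0 kb below the gene, on Pla1a, and 26.7 kb above it, on Timmdc1.

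**Figure D2:**
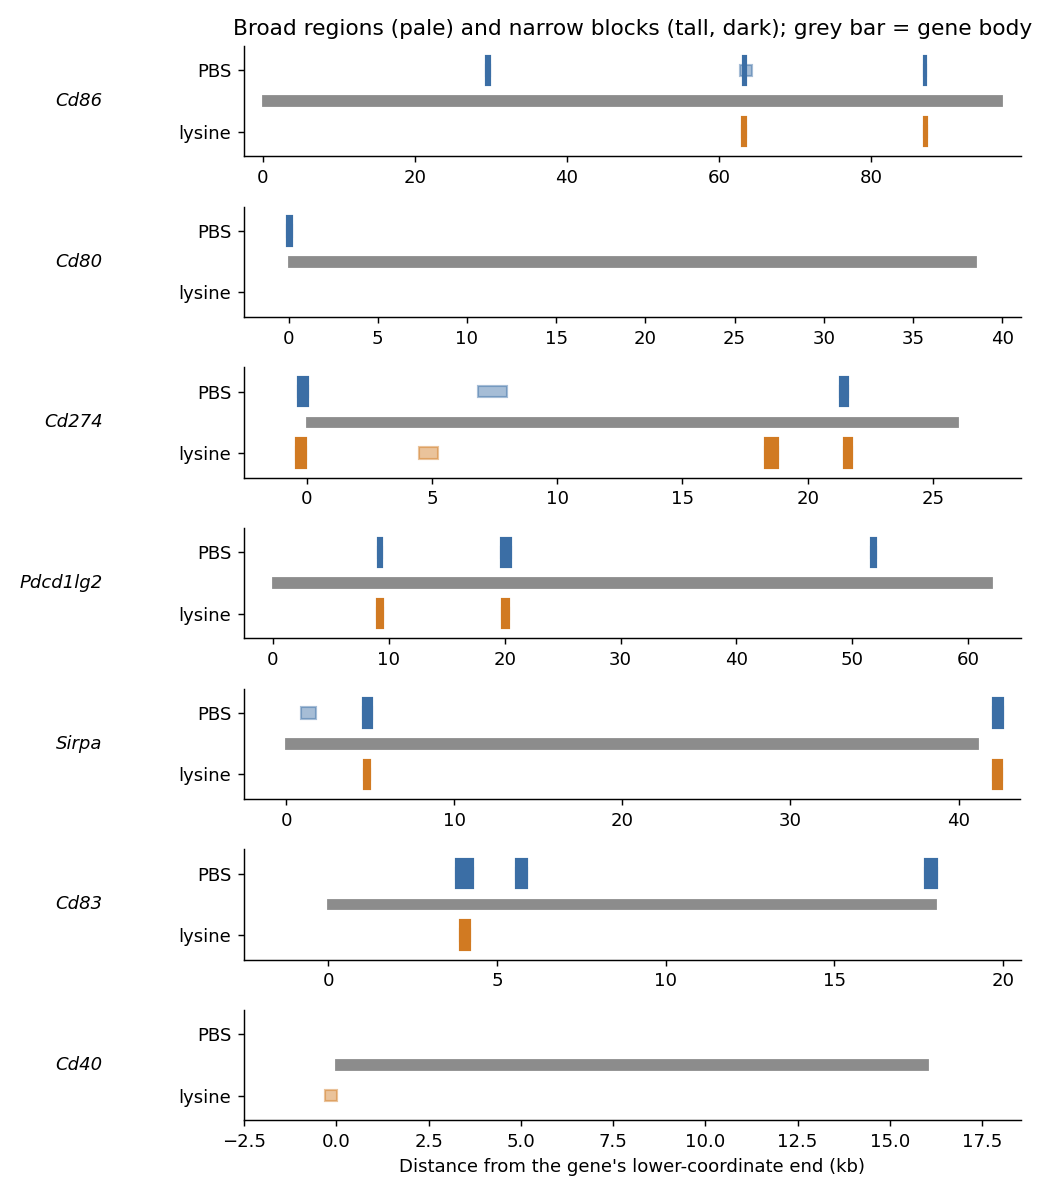
Called regions on the 7 genes with a peak, by distance from the gene's lower-coordinate end in kb, with PBS above and lysine below the grey gene body; pale low bars are broad regions and dark tall bars the narrow blocks inside them. Most peaks of the lysine library stand at the place of a PBS peak, and the exceptions are the Cd40 peak and 2 of the 4 lysine peaks on Cd274.

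Cd274 encodes PD-L1, a coinhibitory ligand (chromosome 19, 29362107 to 29388095). With all peaks counted it had the most covered length of the 9 in lysine, 2011 bp against 1848 bp in PBS. It was then also the most densely covered of the 9 in both, with 67.1 and 61.6 bp per kb of window. Similar totals stood for partly different places. Peaks at the lower end of the gene (29361765 to 29362164 in PBS, 29361673 to 29362092 in lysine) shared 328 bp, and they also lie on Plgrkt, a plasminogen receptor gene that overlaps 5186 bp of Cd274. Peaks further along (29383408 to 29383705 in PBS, 29383564 to 29383878 in lysine) shared 142 bp, over the long non-coding gene Gm36043. Between these places the libraries had no peak in common. PBS had a broad region of 1150 bp (29368959 to 29370108) from 1.52 to 2.67 kb downstream of the start site, with no narrow block in it. Lysine had a region of 743 bp without a block (29366598 to 29367340), and one of 533 bp (29380382 to 29380914) over Gm36043. Every peak on Cd274 was weak in its list, with −log10 q of 2.3 to 2.78 in PBS and 1.67 to 2.61 in lysine. The share of weaker peaks was 16.3 to 26.4% for those in PBS and 5.40 to 26.6% for those in lysine. With peaks below a −log10 q of 2 left out, Cd274 turned to 1848 bp (PBS) and 735 bp (lysine). It also turned without the peaks on Plgrkt, to 1448 and 848 bp. Under either choice Cd86 (1081 bp), Pdcd1lg2 (1054 bp) and Sirpa (850 bp) had more covered length than Cd274 within the lysine library. Without the peaks on Plgrkt, Cd83 was more densely covered than Cd274 within the PBS library, with 53.7 bp per kb.

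The lysine region of 743 bp reached into the promoter of Cd274 and across the end of Plgrkt at 29367292. It covered bases from 840 to 98 upstream of the start site. Its −log10 q was 1.67, above 5.40% of the lysine list, so it is lost when peaks below a −log10 q of 2 are left out. Promoter sequences from RefSeq (GRCm38.p6, from 250 bases before to 50 after a start site) were at hand for 4 of the 9 genes, Cd274, Cd80, Pdcd1lg2 and Icosl. Of 32851 such promoters in the table, 19.1% were under a PBS peak and 18% under a lysine peak. Of the 4, only that of Cd274 was touched by a peak, over 153 bases in lysine and 0 in PBS. It is printed with that stretch in capitals (chr19:29367188-29367487, plus strand), beside the promoters of its neighbour Pdcd1lg2 (chr19:29410669-29410968, plus strand) and of Icosl (chr10:78069118-78069417, plus strand). In the latter pair, which no peak touched, capitals mark CG dinucleotides.
Cd274: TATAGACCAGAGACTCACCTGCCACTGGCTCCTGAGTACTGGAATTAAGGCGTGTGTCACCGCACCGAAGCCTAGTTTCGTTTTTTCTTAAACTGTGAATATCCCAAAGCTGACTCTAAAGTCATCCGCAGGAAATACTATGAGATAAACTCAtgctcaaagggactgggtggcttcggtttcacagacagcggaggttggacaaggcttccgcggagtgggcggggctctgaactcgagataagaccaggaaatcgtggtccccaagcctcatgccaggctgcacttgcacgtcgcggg
Pdcd1lg2: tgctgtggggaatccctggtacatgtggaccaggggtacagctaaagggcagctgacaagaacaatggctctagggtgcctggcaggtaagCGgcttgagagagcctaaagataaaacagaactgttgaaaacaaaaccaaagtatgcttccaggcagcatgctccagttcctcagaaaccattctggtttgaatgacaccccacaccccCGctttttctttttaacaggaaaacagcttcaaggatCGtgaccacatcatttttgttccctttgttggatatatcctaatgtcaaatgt
Icosl: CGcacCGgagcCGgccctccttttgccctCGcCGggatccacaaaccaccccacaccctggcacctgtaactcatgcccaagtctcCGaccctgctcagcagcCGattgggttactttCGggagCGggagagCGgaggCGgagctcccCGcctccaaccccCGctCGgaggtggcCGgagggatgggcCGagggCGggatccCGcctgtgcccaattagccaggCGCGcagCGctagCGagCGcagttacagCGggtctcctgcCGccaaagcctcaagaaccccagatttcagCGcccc

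The promoters differ in base composition. Cd274 has 15 CG dinucleotides, Pdcd1lg2 3, Cd80 3 and Icosl 26, and the median of all promoters is 7. Promoters touched by a peak in either library had a median of 24, and those touched by none a median of 5. Icosl, with more CG dinucleotides than 83.1% of promoters, had no peak there. Both strands of each promoter were searched for short motifs that many transcription factors read. The AP-1 letters TGANTCA occur in 7.81% of all promoters. The core TTCNNNGAA of the GAS element, which Stat factors bind, occurs in 8.3%. The core GAAANNGAA bound by interferon regulatory factors occurs in 8.56%, and the NF-kB consensus in 8.46%. The PU.1 letters GAGGAAGT occur in 3.2%. A TATA box (TATAAA) occurs in 13.6%, and a GC box (GGGCGG) in 35.7%. The Cd274 promoter held the interferon regulatory factor core at bases 175 to 183, on the strand opposite to the gene, and a GC box at bases 220 to 225, both outside the stretch under the lysine peak. Icosl held an NF-kB match on the opposite strand at bases 140 to 149 and a GC box at bases 192 to 197, and Pdcd1lg2 an NF-kB match at bases 7 to 16. Cd80 held AP-1 letters at bases 209 to 215 and the letters TATAAA on the opposite strand at bases 255 to 260. The latter lie past the start site, so they are a match of letters only. None of these matches overlapped another, and GAS and PU.1 letters were in none of the 4 promoters.

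Pdcd1lg2 encodes PD-L2 and lies next to Cd274 on chromosome 19 (29410919 to 29472927). Its covered length was 1530 bp in PBS against 1054 bp in lysine. None of its peaks touched another annotated gene. Peaks 8.99 to 9.46 kb from the start site in lysine (470 bp) and 9.07 to 9.37 kb in PBS (296 bp) coincided, and here the lysine peak was the wider one. Further in, a PBS peak of 836 bp (29430627 to 29431462) held a lysine peak of 584 bp (29430723 to 29431306) inside it. The third and strongest PBS peak (29462522 to 29462919, 398 bp), 51.6 kb from the start site, had a −log10 q of 4.91 and no lysine partner. At a fold enrichment of at least 4 this gene turned, to 398 bp (PBS) and 1054 bp (lysine), because the PBS folds at the shared places (3.67 and 3.79) fell just short of that minimum and the lysine folds (4.04 and 4.05) passed it. The next PBS peak above the gene lay 4.25 kb from its upper end (518 bp), outside the window, and with 5 kb either side the difference went from -476 to -994 bp.

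Sirpa encodes signal regulatory protein alpha, an inhibitory receptor of myeloid cells that binds Cd47 and marks a class of conventional dendritic cells. It lies on chromosome 2 from 129591042 to 129632228 and its covered length was 2024 bp in PBS against 850 bp in lysine. A broad PBS region of 855 bp near the lower end (129591960 to 129592814) had no narrow block and no lysine partner. The next peak was 530 bp wide in PBS (129595641 to 129596170) and 359 bp in lysine (129595656 to 129596014). Its −log10 q was 8.90, above 87.4% of the PBS list, and 2.55, above 25.1% of the lysine list. The strongest PBS peak of the 9 genes began 848 bp above the upper end of Sirpa (129633076 to 129633714, 639 bp), 6.83-fold enriched and with a −log10 q of 10.2. The lysine peak there was 491 bp wide (129633123 to 129633613), 5.21-fold enriched and with a −log10 q of 5.28. Both lysine peaks of Sirpa lay wholly within a wider PBS peak. By narrow blocks the lengths were 1169 bp in PBS and 850 bp in lysine.

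Cd83, an immunoglobulin family protein that marks mature dendritic cells (chromosome 13, 43785112 to 43803133), carried 1182 bp of the mark in PBS against 298 bp in lysine, the lowest ratio (0.252) among the genes with peaks in both. Its first PBS peak (43788890 to 43789408, 519 bp, −log10 q of 7.81) held the single lysine peak (43789019 to 43789316, 298 bp, −log10 q of 3.36). The PBS peaks of 328 bp (43790677 to 43791004) and 335 bp at the upper end (43802811 to 43803145) had no partner. Each of these peaks was a single narrow block from end to end. Peaks with a −log10 q of 5 or more made up 519 bp in PBS against 0 bp in lysine. Outside the window, at 9.44 kb below the gene in PBS and 9.90 kb in lysine, both lists had a wide region outside protein-coding genes, of 1414 and 982 bp.

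Cd40 is the receptor by which helper T cells license dendritic cells through Cd40lg (chromosome 2, 165055614 to 165071654). Its covered length was 0 bp in PBS against 330 bp in lysine. Its peak (165055297 to 165055626) crossed the lower end of the gene, with 13 bp in the body, and held no narrow block. A −log10 q of 1.39 placed it above 0.0816% of the lysine list, so Cd40 was without a peak in both libraries once peaks below a −log10 q of 2 were left out. Icosl encodes the ligand of Icos (chromosome 10, 78069368 to 78079525), and Tnfsf9 encodes 4-1BB ligand, which binds Tnfrsf9 on activated T cells (chromosome 17, 57105287 to 57107758). Neither had a peak within 2 kb in any library, nor within 5 kb. Regions without a protein-coding gene held the nearest peaks in both lists, 7.02 kb (PBS) and 7.21 kb (lysine) above Icosl and 5.09 and 5.15 kb above Tnfsf9. The PBS peak above Tnfsf9 was 563 bp wide with a −log10 q of 13.5, and the lysine peak there 364 bp wide with a −log10 q of 2.87. Absence of a call does not mean absence of the mark, since signal below the caller's threshold is not listed.

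Peaks were taken within 2 kb of the 9 genes, so regions far from genes could not enter. Of 16 PBS peaks 12 had their midpoint inside a gene and more than 1 kb from any gene end, 3 within 1 kb of an end and 1 between genes. Of 12 lysine peaks the numbers were 8, 3 and 1. Among all peaks within 2 kb of any protein-coding gene, 41.2% in PBS and 35.3% in lysine lay deeper inside genes, 56.6% and 62.7% near gene ends, and 2.17% and 1.91% between genes. These shares were not matched for gene length, and most of the 9 genes have windows of 20 kb or more. The median width of the peaks was 459.5 bp (PBS) and 480.5 bp (lysine), and the median −log10 q 3.72 and 2.68, compared with list medians of 4.03 and 3.85. Only 4 PBS peaks (1 on Cd86, 2 on Sirpa and 1 on Cd83) and 3 lysine peaks (2 on Cd86 and 1 on Sirpa) reached a −log10 q of 5.

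Of the PBS peaks 9 of 16 overlapped a lysine peak, and of the lysine peaks 9 of 12 overlapped a PBS peak. Over the whole lists these shares were 61.9% and 75.3%. In the 9 pairs the lysine peak was narrower in 5 and wider in 4, with a median difference of -148 bp. Over all 7339 pairs in which each peak had a single partner, 57.3% were narrower in lysine, with a median difference of -26 bp. In 5 of the 9 pairs the lysine peak lay wholly inside a wider PBS peak, and in 2 the reverse was found, compared with 28.9% and 18% of all such pairs. The 7 PBS peaks without a partner were 302 to 1150 bp wide, with −log10 q of 2.23 to 4.91. The 3 lysine peaks without a partner were 330 to 743 bp wide, with −log10 q of 1.39 to 1.86.

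**Figure D3:**
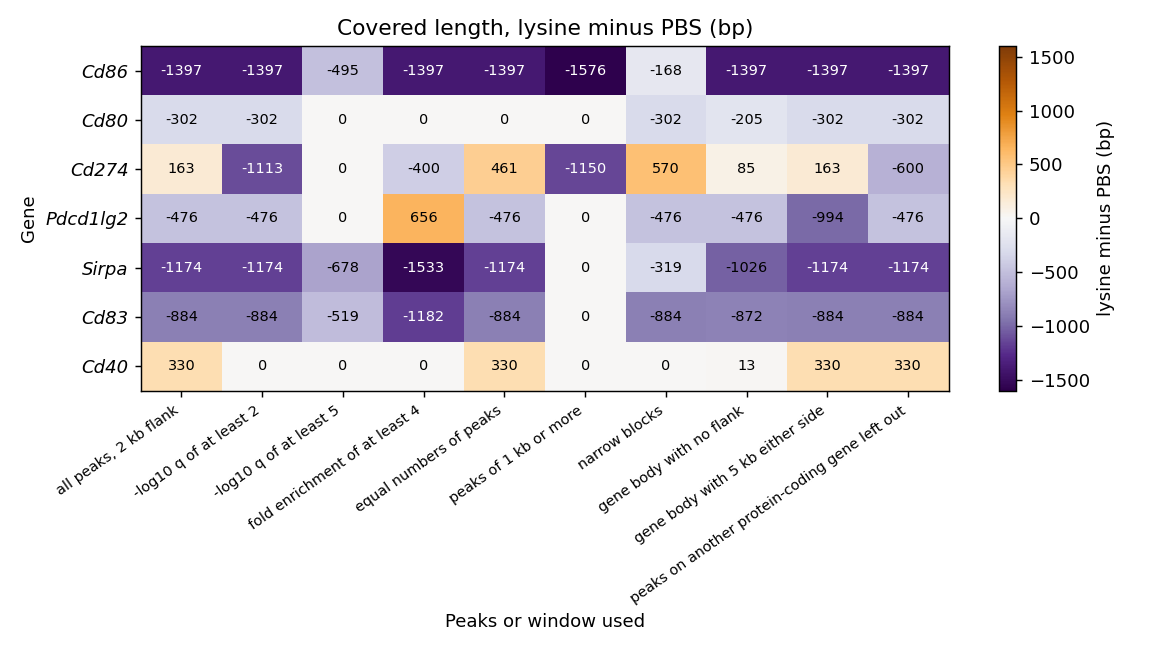
Covered length, lysine minus PBS in bp, of the 7 genes with a peak (vertical axis), with all peaks and under 9 other choices of peaks or window (horizontal axis); purple is shorter and orange longer in lysine. Cd86 is shorter in lysine in every column, from -1576 to -168 bp, and Cd274 takes both signs, from -1150 to 570 bp.

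Cd86 was shorter in lysine in 9 of 9 other choices of peaks and window. Several choices kept all of its peaks and so returned the same -1397 bp, which adds nothing to that count. Those that changed its value gave -1576 bp (peaks of 1 kb or more), -495 bp (−log10 q of 5 or more) and -168 bp (narrow blocks). In the same way -1174 bp came back several times for Sirpa and -884 bp for Cd83. Sirpa and Cd83 were shorter in 8 of 9 and showed no difference in the remaining one, with peaks of 1 kb or more alone, where neither gene kept a peak. Cd80 was shorter in 5 and without difference in 4. Cd274 was shorter in 4 and longer in 4. Pdcd1lg2 was shorter in 6 and longer in 1, and Cd40 longer in 4 and without difference in 5.

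The genes nearest to these in covered length, by the sum of the 2 libraries' absolute differences over 21900 genes, were Dido1 and Fnip2 for Cd86 (18 and 25 bp away) and Emp1 and Ssh2 for Sirpa (18 and 30 bp). They were Atl2 and Ms4a20 for Cd83 (9 and 23 bp), Zfp710 and Fem1c for Cd274 (42 and 49 bp), and 1110059E24Rik and Mtus1 for Pdcd1lg2 (21 and 22 bp). A likeness over 2 libraries says little beyond equal lengths.

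Other ligands of antigen-presenting cells had a similar total in both libraries when peaks shared with other genes were counted, with single genes differing in both directions. Of 22 such genes 8 carried PBS peaks, 6 lysine peaks and 12 none, against 36.9%, 34% and 58.6% of all protein-coding genes. The total of the 22 genes was 6229 bp in PBS against 5781 bp in lysine, with a median difference of 0 bp. In lysine 6 genes were shorter and 4 longer, against 59.3% and 40.6% of all genes with a peak in either library. The total of these ligands includes peaks of Vsir and Nectin2 that also lie on other genes, and it was not taken without them. Vsir had the largest gain of the list (580 bp), so the likeness of the totals leans on peaks shared with Cdh23. Of the 10 genes with a peak, Tnfsf4, Cd24a, Icam1 and Cd200 had peaks in PBS alone, and Lgals9 and Tnfsf18 in lysine alone. Cd47, the ligand of Sirpa, had 2075 and 2062 bp, so it was covered alike in both libraries while Sirpa had 2024 and 850 bp. Nectin2, an adhesion molecule, had 1170 and 1142 bp, with peaks that also touch Tomm40. Vsir, which encodes the inhibitory B7 relative VISTA and has peaks that also lie on Cdh23, was longer in lysine (900 and 1480 bp). Tnfsf4, which encodes OX40 ligand, had 852 bp in PBS and 0 bp in lysine.

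Few genes of the matching receptors on T cells had a called peak. Of 18 such genes 14 had none in either library, against 58.6% of all protein-coding genes. Peaks in PBS lay on 4 and in lysine on 3, against 36.9% and 34% of all protein-coding genes, with 2669 and 1580 bp covered. Havcr2, which encodes Tim-3 and is also found on dendritic cells, had 1113 and 344 bp. Tnfrsf8 had 549 and 730 bp, Lag3 521 and 506 bp, and Tigit 486 and 0 bp.

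Regulators and signalling partners of these ligands differed in both directions. Of 24 genes 16 carried PBS peaks and 17 lysine peaks, against 36.9% and 34% of all protein-coding genes. The 24 genes had 17.9 and 14.9 kb covered, a ratio of 0.830, beside 0.829 over the windows of all protein-coding genes. In lysine 9 were shorter and 9 longer, against 59.3% and 40.6% of all genes with a peak in either library. The median difference was 0 bp. Marchf1, a ubiquitin ligase that removes Cd86 and MHC class II from the surface, had the largest difference of the list, 3566 bp in PBS against 689 bp in lysine. The NF-kB subunit gene Rel had 2277 and 1100 bp. Stat3, a transcription factor of cytokine signalling, had 1917 and 1903 bp.

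**Figure D4:**
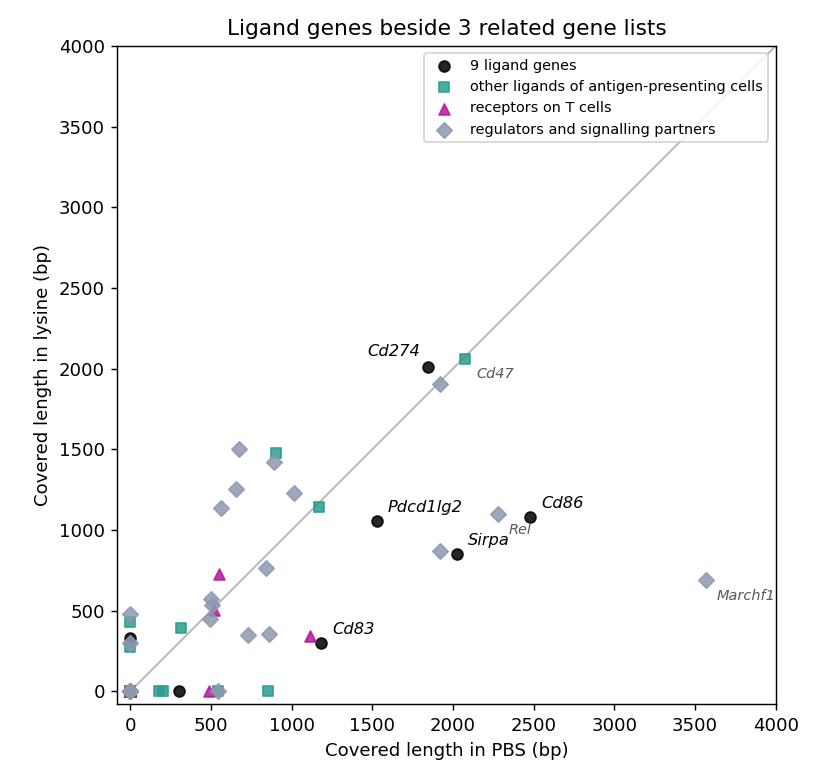
Covered length in PBS (horizontal axis, bp) and in lysine (vertical axis, bp) of the 9 ligand genes and of the genes of 3 related lists, 1 point per gene, with the line of equal length in grey. Cd86, Sirpa, Cd83 and Pdcd1lg2 lie below the line together with Marchf1 and Rel, whereas Cd274 and Cd47 lie near it.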

How the data were processed

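The labels' protocols describe formaldehyde-fixed BMDCs, libraries amplified by 15 PCR cycles and paired reads of 150 bp. The submitters' processing notes name MACS2 2.1.2, Bowtie2 2.3.4.1, Picard, Trimmomatic 0.38, cutadapt 1.18, FastQC and ChIPseeker, and the build GRCm38, with no role or setting for any. How peaks were called, and whether against the inputs, is not given in the sources used here. Peaks were deposited per sample in a broad and a gapped list. The files have no header, so columns were read by the MACS2 layout. The deposited fold enrichment is a linear ratio of a peak's signal to background. Each deposited peak has a −log10 p and a −log10 q, whose minimum is 1.37 (PBS) and 1.32 (lysine). The deposited score repeats the −log10 q, multiplied by 10 and cut to a whole number, except for 1 lysine peak. The deposited number of narrow blocks per region was used after leaving out blocks of 1 bp, which mark region ends.

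Groups came from the sample titles. Covered length is the bp of a RefSeq gene (GRCm38.p6, 21900 protein-coding genes) with 2 kb either side under the union of peaks. The gene table has no strand, so ends are given as lower and upper coordinate. Peaks sharing 1 bp count as overlapping. The members, the lists and the alternatives were chosen with earlier results of these data known. Named are all 9 genes with their peaks, the protein-coding genes under those peaks, from each of the 3 pathway lists the 3 most covered genes and the 2 that differ most, and for each of the 9 genes with 500 bp or more in either library the 2 nearest genes in covered length; others are named after their values were seen. All entries of the lists matched a gene. Computations used Python 3.11.15, numpy 2.4.6, pandas 2.3.3 and matplotlib 3.10.9. Covered lengths were tested on simulated data (0 of 17090 genes wrong, of which only 200 were given peaks) and checked against bedtools 2.31.1 with 0 differences.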

Additional observations from a re-analysis of the deposited data

How the results depend on the processing

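The total over the 9 genes, -3740 bp, was shorter in lysine under all 9 alternatives. It came closest to 0 with −log10 q held to 5 or more (-1692 bp) and by narrow blocks (-1579 bp). Genes with a peak, 6 in each library, numbered 3 in PBS and 2 in lysine with −log10 q held to 5 or more, and 2 and 0 with peaks of 1 kb or more. At a fold of at least 4, lysine had a peak on 3. Genes shorter in lysine, 5 with all peaks, numbered 3 with −log10 q held to 5 or more and 2 with peaks of 1 kb or more. Genes longer in lysine, 2 with all peaks, numbered 0 with −log10 q held to 2 or more, to 5 or more and with peaks of 1 kb or more. They numbered 1 at a fold of at least 4, by narrow blocks and without peaks on another protein-coding gene. Cd274 turned from 163 bp to -1113 bp with −log10 q held to 2 or more, -400 bp at a fold of at least 4, -1150 bp with peaks of 1 kb or more and -600 bp without peaks on another gene. Pdcd1lg2 turned from -476 to 656 bp at a fold of at least 4. The cause was not tested beyond the peaks named in the report. No paired analysis was possible because each condition has 1 library and no result comes from a test. No library could be left out for the same reason. Weak peaks depend on depth, which is unknown, so a place without a peak is not a place without the mark.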
